A study of Homo sapiens with 16 samples.

Results

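The MAGEA, MAGEB and MAGEC genes were read on 16 expression arrays of HCT116 and RKO, human colon cancer cell lines. They were taken as the probe sets whose gene symbols are all MAGEA, MAGEB or MAGEC genes, which gave 22 of the 54675 probe sets of the array and covered 21 of its 21357 gene symbols. MAGEA1, MAGEA3, MAGEA4, MAGEA6, MAGEA8, MAGEA10, MAGEB1, MAGEB2, MAGEC1 and MAGEC2 were the 10 main genes, and 11 probe sets read them. Of the 22, 18 had 1 symbol and 4 were shared: 209942_x_at by MAGEA3 and MAGEA6, 1553830_s_at and 214603_at by MAGEA2 and MAGEA2B, and 210437_at by MAGEA9 and MAGEA9B. MAGEA3 had no probe set of its own. All 21 genes lie on chromosome X.

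Over 3 days the cells of each line received 5-aza-dC, TSA and PJ-34 together, a pair of them, 1 of them or none. 5-aza-dC, a nucleoside that traps DNA methyltransferases and leaves new DNA less methylated, was used at 0.5 µM. TSA, an inhibitor of histone deacetylases, was used at 150 nM. PJ-34, an inhibitor of poly(ADP-ribose) polymerase, was used at 3 µM in HCT116, and for RKO its dose stands as both 2 µM and 3 µM in the sources. RNA of each condition was hybridized to 1 array, so no condition had a replicate, and each drug effect compared the 4 arrays of a line with the drug against the 4 without it. The p-values therefore measure the scatter between single arrays of different conditions, and the number of arrays limits the precision.

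MAGE-A, MAGE-B and MAGE-C proteins, the type I MAGE proteins, are cancer-testis antigens: in adults their genes are used mainly in the testis and are switched on in many tumors, where peptides of the proteins can be shown to T cells. Several of them bind a RING ubiquitin ligase and direct it to substrates. Their promoters are known to be silent while their CpG sites are methylated, and demethylating drugs are known to switch many of them on in cultured tumor cells.

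The promoter windows are shown because 5-aza-dC acts on the methylation of CpG sites. RefSeq windows from 250 bases before to 50 bases after a transcript start (GRCh38.p14) were at hand for 19 of the 21 genes, among them 8 of the 10 main genes, as 26 windows. MAGEA1 and MAGEA10 had none. Below are the 200 bases just before the start for 4 genes that the results turn on, with each CpG in capitals.
MAGEA4, chrX:151912274-151912473, plus strand: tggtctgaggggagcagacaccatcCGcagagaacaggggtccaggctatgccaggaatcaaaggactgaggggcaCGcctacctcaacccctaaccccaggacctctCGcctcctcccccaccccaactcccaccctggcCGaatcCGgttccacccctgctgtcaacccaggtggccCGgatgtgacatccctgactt
MAGEA8, chrX:149880983-149881182, plus strand: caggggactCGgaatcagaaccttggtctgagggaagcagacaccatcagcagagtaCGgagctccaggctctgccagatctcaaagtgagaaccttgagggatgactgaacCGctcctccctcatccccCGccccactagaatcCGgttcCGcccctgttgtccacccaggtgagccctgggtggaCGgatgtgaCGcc
MAGEA6, chrX:152769690-152769889, minus strand: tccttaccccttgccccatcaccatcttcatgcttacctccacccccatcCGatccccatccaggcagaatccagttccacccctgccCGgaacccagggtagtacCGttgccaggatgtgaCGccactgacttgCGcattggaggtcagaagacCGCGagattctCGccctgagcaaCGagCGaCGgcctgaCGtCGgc
MAGEB2, chrX:30215363-30215562, plus strand: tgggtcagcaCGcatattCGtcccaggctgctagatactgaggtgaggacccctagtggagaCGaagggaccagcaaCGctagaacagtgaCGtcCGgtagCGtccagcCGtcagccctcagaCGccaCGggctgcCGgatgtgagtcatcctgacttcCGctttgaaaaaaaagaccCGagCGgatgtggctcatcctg
The same 200 bases of MAGEA3 were 100% identical to those of MAGEA6. The 26 windows held 1 to 21 CpG sites (median 12.5), against a median of 14 over 35097 windows of all genes (quartiles 4 and 28). The windows of MAGEA6 and MAGEA3 held 19, that of MAGEB2 21, that of MAGEA8 12 and the 5 of MAGEA4 10 to 15. A stretch that was noticed on reading these windows, CGGATGTG, stood on either strand in 18 of the 26 MAGE windows (69.2%) and in 234 of the 35097 (0.667%), which include the MAGE ones. Some MAGE windows are identical or overlap, and by gene the stretch stood in 12 of 19. Its copy nearest the start began 21 bases before it in the MAGEA4 window shown and 13 in that of MAGEA8. In the MAGEB2 window, which held 2 copies, the nearest began 18 bases before it. MAGEA6 and MAGEA3 had none. The letters CCGGAA, also on either strand, were found in 3 of the 26 MAGE windows (11.5%), those of MAGEA3, MAGEA6 and MAGEB6, and in 17.3% of all windows. A match describes letters only.

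The deposited values were signal intensities scaled to a common mean on each array. The median signal of an array was 151 to 209.7, and on each array 21.9% to 27.3% of signals were under 50. Signals under 50 were set to 50 before log2 was taken, so fitted changes of low genes are understated. Among the epithelial genes EPCAM gave 35438 in the HCT116 control and 3544 in the RKO control, and KRT18 gave 75723 and 15270.2. CDH1 gave 8909 in the HCT116 control but 9.83 in the RKO control, and the intestinal factor CDX2 gave 51.2 and 28.4. Of the leukocyte markers PTPRC gave 94 and 107, CD3E 93.9 and 174, CD79A 171 and 365, and LYZ 87.6 and 70.8. Of the fibroblast markers COL1A1 gave 1955 in the HCT116 control and 40.7 in the RKO control. COL1A2 gave 82.2 and 26.7, DCN 171 and 104, and LUM 252 and 30.6. The 7 germ cell genes ranged from 10.5 to 346 in the HCT116 control and from 11.8 to 175 in the RKO control. DDX4 and PRM2 were under 50 in both controls, whereas PRM1 gave 346 in HCT116 and 119.9 in RKO, TNP1 158 and 175, SYCP3 135 and 113, ACRV1 135 and 77.0, and DAZL 73.5 and 132.7.

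Both RKO arrays without TSA that carry PJ-34 went against their labels. This was read from genes outside the MAGE family: 180 probe sets with 1 symbol that rose with 5-aza-dC in HCT116. The number of them at 2-fold or more over the RKO control was 54 on the array labelled PJ-34 and 10 on the array labelled PJ-34/5-aza-dC. It was 53, 58 and 67 on the arrays with 5-aza-dC, 5-aza-dC/TSA and all 3 drugs, and 16 and 19 on those with TSA and PJ-34/TSA. The array labelled PJ-34 thus read like arrays with 5-aza-dC and the array labelled PJ-34/5-aza-dC like arrays without it. Among the 10 genes with the largest HCT116 effect the same counts were 4 on the array labelled PJ-34, 1 on the array labelled PJ-34/5-aza-dC and 6 on the array with 5-aza-dC. No label was changed. The fits that use RKO arrays were run as labelled and without both arrays.

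**Figure D1:**
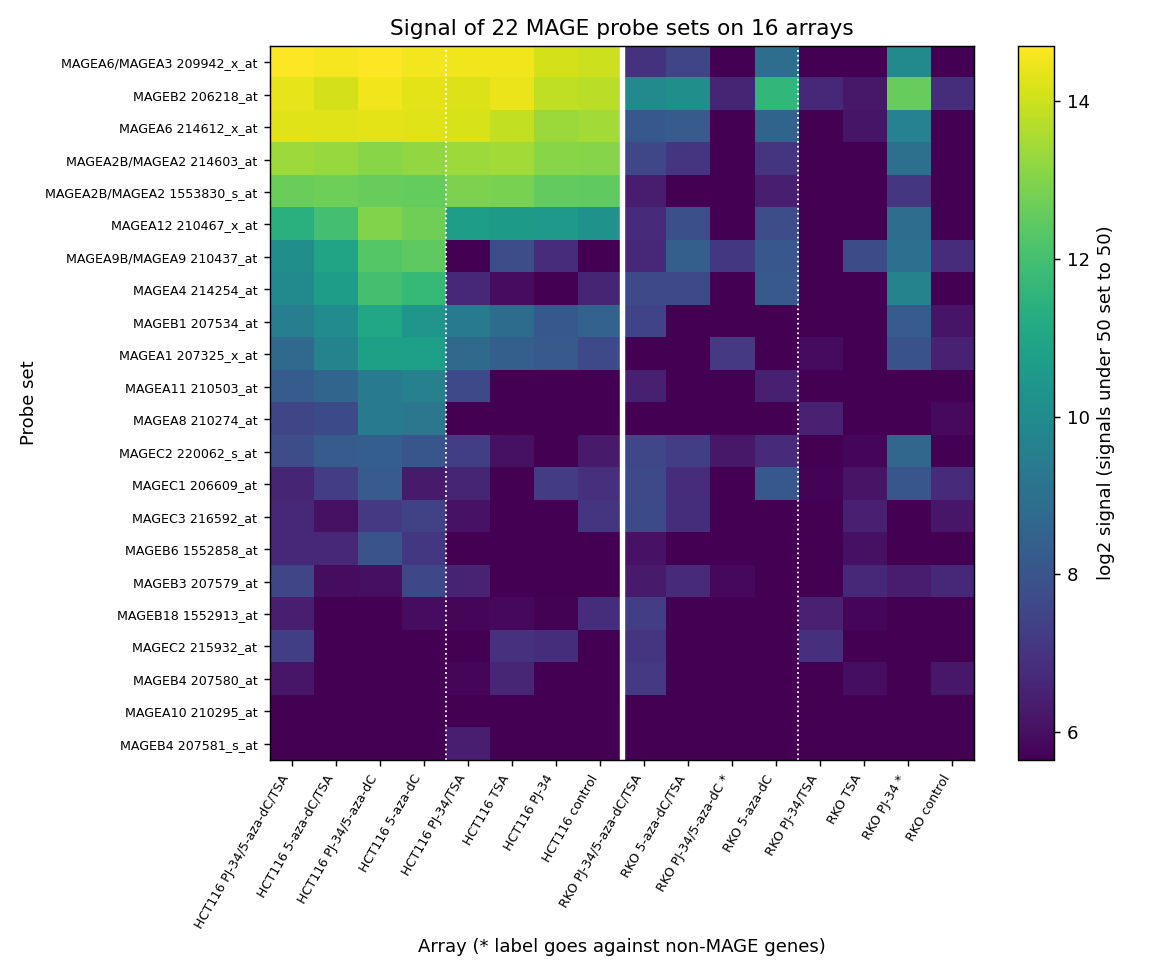
Heat map of the log2 signal (colour, signals under 50 set to 50) of the 22 MAGE probe sets (rows) on the 16 arrays (columns, HCT116 left of RKO, arrays with 5-aza-dC left of those without). Each row is read along its length only. Stars mark both RKO arrays that go against their labels, and the array labelled PJ-34 is the brightest RKO array in 11 of 22 rows.

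In untreated HCT116 cells the family was split. The probe sets of MAGEA2, MAGEA3, MAGEA6, MAGEA12 and MAGEB2 gave 1225 to 16659 in the control, whereas those of MAGEA8, MAGEA9, MAGEA10 and MAGEA11 gave 13.0 to 42.7 there. Counted over the family, 6 probe sets were at 1000 or more, 7 from 50 to 1000 and 9 under 50. In untreated RKO cells none reached 1000, the highest was 113 (MAGEB2), 9 were at 50 or more and 13 were under 50. Of the 176 MAGE signals in each line, 47 (26.7%) were under 50 in HCT116 and 92 (52.3%) in RKO.

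With 5-aza-dC in HCT116, MAGEA9 rose 32.0-fold and MAGEA4 29.5-fold, and MAGEA8, MAGEA11 and MAGEA12 rose 3.39- to 7.02-fold. MAGEA1, MAGEB1 and MAGEC2 were 2.89- to 3.43-fold higher without passing the test. MAGEA2, MAGEA6 and MAGEB2, already bright in the control, differed by less than 1.5-fold. Of the 22 probe sets 15 were bright enough to be tested, and 5 of them were called up and none down (limma, adjusted p under 0.05), while 238 of 35373 probe sets (0.673%) were called up. MAGEA4, MAGEA8 and MAGEB6, 3 of the 15, reached the filter's signal of 100 on no array without 5-aza-dC, so they entered only through the arrays where they were high and had to differ. With no filter, the fitted effect was above 0 in 16 of all 22, below 0 in 5 and 0 in 1, against 46.9% of all probe sets above 0, and its median was 0.64 on the log2 scale over the 22.

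MAGEA4, whose protein is a target of T cell therapies, gave 3321 with 5-aza-dC, 4147 with PJ-34 added, 1680.3 with TSA added and 973 with all 3 drugs, against 96.7, 20.5, 61.8 and 99.9 on those with none, PJ-34, TSA and PJ-34/TSA. The lowest array with the drug was far above the highest without it, and the log2 effect was 4.88 (SE 0.38, adjusted p = 1.16e-05). MAGEA4 passed the filter only through its arrays with 5-aza-dC and so had to differ, which limits what this gap and p-value add. The probe set shared by MAGEA9 and MAGEA9B gave 5629, 5056, 1964 and 1133 with 5-aza-dC, in the same order, against 42.7, 110.1, 220.2 and 30.2 without it. Its log2 effect was 5.00 (SE 0.50, adjusted p = 9.27e-05). The groups did not overlap, and for both probe sets each array with 5-aza-dC was above the array that differed in that drug alone.

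MAGEA8 gave 609, 654, 204 and 186 with 5-aza-dC, against 14, 36.2, 23.4 and 11.4 without it. All 4 signals without the drug lay under the floor of 50, and the log2 effect over that floor was 2.81 (SE 0.47, adjusted p = 0.00899). MAGEA8 too passed the filter only through its arrays with 5-aza-dC and had to differ. MAGEA11, described as a coactivator of the androgen receptor, gave 778, 655, 390.1 and 309 with 5-aza-dC, against 13, 4.74, 51 and 202 without it. The array with PJ-34/TSA was the highest without 5-aza-dC, and the log2 effect was 2.81 (SE 0.51, adjusted p = 0.0172). MAGEA12 was already on in the control and gave 6764, 8102, 4076 and 2676 with 5-aza-dC, against 1225, 1449, 1529 and 1676 without it. The groups did not overlap and the log2 effect was 1.76 (SE 0.24, adjusted p = 0.00224).

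These calls rested on the filter and on the variance model. When low probe sets were kept, 0 of the 22 MAGE probe sets were called (11 at an unadjusted p under 0.05, lowest adjusted p = 0.197), and 2 of all 54613 were. When variances were moderated without a trend, 0 of the 15 were called (10 at an unadjusted p under 0.05, lowest adjusted p = 0.0513), and 19 of 35373 were. In the fit above 11 of the 15 had an unadjusted p under 0.05. Leaving out 1 array moved the count to 3 (without the control array, that with 5-aza-dC or that with PJ-34/5-aza-dC), to 10 (without TSA) and to 8 (without PJ-34/TSA). MAGEA4, MAGEA9 and MAGEA12 were called in all 8 of these fits. MAGEA8 was called in 5, being lost without each of the first 3 arrays named. MAGEA11 was called in 4, being lost without those and without PJ-34. In each fit MAGEA4 and MAGEA8 again entered only through the arrays where they were high.

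**Figure D2:**
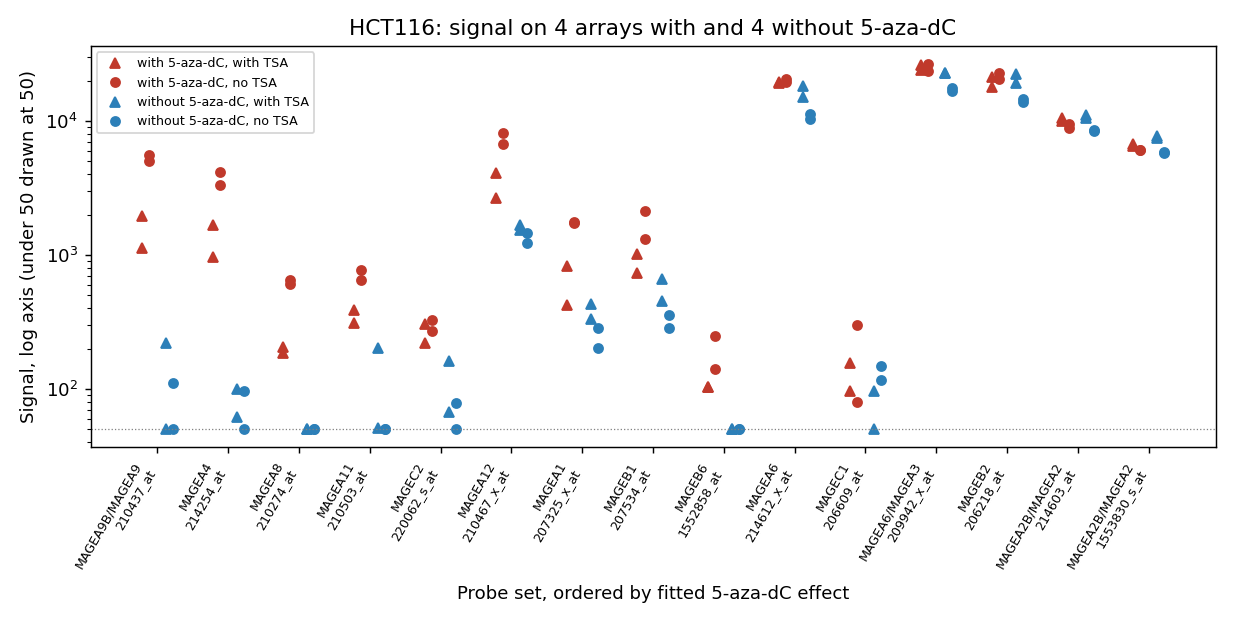
Signals of the 15 tested MAGE probe sets in HCT116 (log axis, signals under 50 drawn at 50), for the 4 arrays with 5-aza-dC (red, left) and the 4 without it (blue, right), with triangles for arrays with TSA. MAGEA4, MAGEA8 and MAGEA9 show a gap between the groups, and in MAGEA4 the red triangles (973 and 1680.3) lie under the red circles (3321 and 4147). MAGEA4 and MAGEA8 passed the filter only through their red points.

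Among the other main genes, MAGEA1, the first MAGE gene found through a T cell response, gave 1734, 1759, 825 and 424 with 5-aza-dC, against 202, 287, 332 and 433 without it. The groups overlapped by the array with all 3 drugs, and the effect of 1.75 (SE 0.39) did not pass (adjusted p = 0.0634). MAGEB1 gave 1327, 2139, 1023 and 737 with 5-aza-dC, against 358, 283, 457 and 666 without it. The groups did not overlap, but the effect of 1.53 (SE 0.33) did not pass either (adjusted p = 0.0515). MAGEC2, whose protein binds TRIM28, gave 271, 328, 305 and 218 with 5-aza-dC, against 78.8, 25, 67.1 and 162 without it on probe set 220062_s_at (log2 effect 1.78, SE 0.45, adjusted p = 0.117).

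The genes bright in the control stayed bright. MAGEA6 gave 19475, 20781, 19429.7 and 19523 with 5-aza-dC, against 11260.5, 10458, 15021 and 18389 without it, and its effect was 0.56 (SE 0.13, adjusted p = 0.0757). The probe set shared by MAGEA3 and MAGEA6 ranged from 23588 to 26645 with 5-aza-dC, against 16659 to 23026 without it (log2 effect 0.34, SE 0.10, adjusted p = 0.213). MAGEB2 ranged from 17917 to 22999.5 with 5-aza-dC, against 13829 to 22429 without it (log2 effect 0.26, SE 0.14, adjusted p = 0.531). For the probe sets of MAGEA2 and MAGEA2B the 95% intervals of the log2 effect ran from -0.19 to 0.22 and from -0.29 to 0.15.

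The remaining genes were dim. MAGEC1 ranged from 79.4 to 302 with 5-aza-dC, against 28.7 to 148 without it, and its interval ran from -0.57 to 1.62. MAGEA10 gave 12.8 to 49.2 with 5-aza-dC, against 10.7 to 19 without it, so all of its HCT116 signals lay under 50. It was not tested, nor were MAGEB3, MAGEB4, MAGEB18, MAGEC3 or the second MAGEC2 probe set. MAGEB6 gave 103 to 250 with 5-aza-dC, against 9.26 to 49.8 without it, and did not pass (log2 effect 1.47, SE 0.53, adjusted p = 0.309). Over all 22 probe sets the lowest array with 5-aza-dC was above the highest without it in 10, against 2.12% of the 54613 non-control probe sets.

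TSA and PJ-34 did not give a call among the 15. For TSA 0 were called in either direction, while 4.83% of all tested probe sets were called down and 4.16% up. An unadjusted p under 0.05 was found in 3 of the 15 and in 8476 of all 35373. These 3 were higher with TSA: both probe sets of MAGEA2 (log2 effects 0.249 and 0.250) and MAGEA6 (0.284). Without the TSA array 1 was called down, MAGEA9 with a log2 effect of -1.37. For PJ-34 0 of the 15 were called (0 at an unadjusted p under 0.05), and 0% of all tested were. On the 2 arrays with both 5-aza-dC and TSA, however, the signal was lower than on both arrays with 5-aza-dC but not TSA in 10 of the 22 MAGE probe sets, against 21.4% of all. MAGEA10, all under 50, is 1 of the 10. The difference between the log2 means was 3.58-fold for MAGEA9, 3.24-fold for MAGEA8, 2.95-fold for MAGEA1, 2.90-fold for MAGEA4, 2.24-fold for MAGEA12 and 2.06-fold for MAGEA11.

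The 5-aza-dC by TSA interaction, which also takes off the TSA effect on the arrays without 5-aza-dC, was below 0 in 14 of the 15. Its median was -0.94 over the 15 and 0.03 over all tested, and the share of all below 0 was not worked out. An unadjusted p under 0.05 was found in 9 of the 15 and in 1902 of all 35373. None of the 15 passed after adjustment over all probe sets, where 0% passed. For MAGEA12 the interaction was -1.43 on the log2 scale (SE 0.31, adjusted p = 0.672), for MAGEA1 -2.22 (SE 0.53, adjusted p = 0.727) and for MAGEA4 -1.71 (SE 0.63, adjusted p = 0.897). The 5-aza-dC effect of MAGEA4 was 4.02 on the arrays with TSA and 5.74 on those without it. That of MAGEA1 was 0.64 on the arrays with TSA and 2.86 on those without it.

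In RKO, MAGEB2 and MAGEA6 were called up with 5-aza-dC once both doubted arrays were left out, and as labelled no MAGE gene passed the test. Both arrays were doubted from the 5-aza-dC response of other genes in these same data. The p-values of all fits without them do not allow for that choice. As labelled, 0 of the 9 tested MAGE probe sets were called up with 5-aza-dC (0 at an unadjusted p under 0.05), and 0% of 33862 were. Without both arrays 2 of the 9 were called, against 1.13% of all, in a fit of 6 arrays. Of the 9, 6 reached 100 on no array without 5-aza-dC other than the array labelled PJ-34: MAGEA4, MAGEA6, MAGEA12, MAGEC2 on 220062_s_at, MAGEA2 on 214603_at and the probe set of MAGEA3 and MAGEA6. In the fit without both arrays these had to differ, MAGEA6 among them. With no filter, the effect without both was above 0 in 17 of all 22 and below 0 in 3, with a median of 0.51 on the log2 scale, against 54.9% above 0 and a median of 0.05 over all probe sets. As labelled it was above 0 in 16 and below 0 in 4, with a median of 0.22, against 53.8% and 0.03. When low probe sets were kept in this way, 0 were called without both arrays (8 at an unadjusted p under 0.05), and MAGEB2 had an adjusted p of 0.410.

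MAGEB2 gave 3181, 1147 and 1008 on the RKO arrays with 5-aza-dC, 5-aza-dC/TSA and all 3 drugs, against 113, 74.7 and 101 on those with none, TSA and PJ-34/TSA. The array labelled PJ-34/5-aza-dC gave 95.7 and the array labelled PJ-34 gave 6122. The log2 effect was 4.03 without both (SE 0.32, adjusted p = 7.84e-06) and 1.52 as labelled (SE 1.25, adjusted p = 0.884). MAGEA6 gave 381, 307 and 283 with 5-aza-dC, against 15.7, 71.3 and 5.55 without it, with 31.6 on the array labelled PJ-34/5-aza-dC and 803 on the array labelled PJ-34. Its effect was 2.51 without both (SE 0.50, adjusted p = 0.0186) and 0.88 as labelled (adjusted p = 0.895).

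MAGEA4 gave 285, 199 and 198 in RKO with 5-aza-dC, against 3.55, 23.4 and 4.5 without it, with 35.8 on the array labelled PJ-34/5-aza-dC and 836 on the array labelled PJ-34. The effect of 2.16 without both (SE 0.56) did not pass (adjusted p = 0.0704). The probe set shared by MAGEA3 and MAGEA6 gave 485, 187 and 125 with 5-aza-dC, against 12.4, 6.85 and 6.72 without it, and did not pass (log2 effect 2.17 without both, SE 0.60, adjusted p = 0.0907). The groups of 6 did not overlap for either. Over the 22 probe sets the lowest of the 3 arrays with 5-aza-dC was above the highest of the 3 without it in 9, against 9.12% of all, and as labelled in 0.

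**Figure D3:**
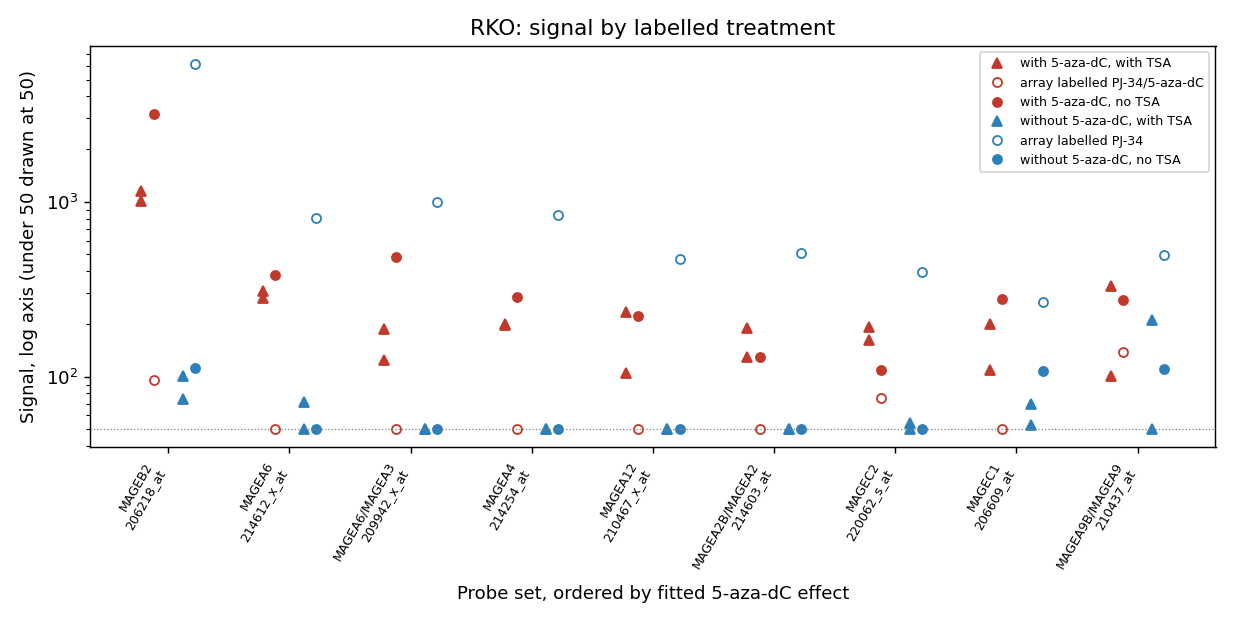
Signals of the 9 tested MAGE probe sets in RKO (log axis, signals under 50 drawn at 50), arrays labelled with 5-aza-dC in red at the left and those labelled without it in blue at the right, triangles with TSA. Open circles are both doubted arrays: for MAGEB2 the array labelled PJ-34 reads 6122 and the array labelled PJ-34/5-aza-dC 95.7.

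The signals of MAGEA1, MAGEA8 and MAGEA10 were low in RKO with and without 5-aza-dC. MAGEA1 gave 28.2, 37.2 and 27.4 with 5-aza-dC, against 88.2, 22.9 and 60.4 without it, and the arrays labelled PJ-34/5-aza-dC and PJ-34 gave 140.4 and 242. MAGEA8 gave 9.96 to 28.3 with the drug, against 31.8 to 89.6 without it, and so lay lower with it. MAGEA10 gave 13.2 to 26.4 with the drug, against 12.3 to 23.6 without it, all under 50 and overlapping. MAGEB1 gave 30.0, 34.5 and 178 with 5-aza-dC, against 71.8, 5.36 and 25.8 without it, with 6.85 on the array labelled PJ-34/5-aza-dC and 310.3 on the array labelled PJ-34. None of these 4 was bright enough to be tested in RKO. TSA gave 0 calls among the 9 as labelled (0 at an unadjusted p under 0.05), with 0.00591% of all called, and 0 without both arrays (1 at an unadjusted p under 0.05), with 0.0148%. PJ-34 gave 0 as labelled (0 at an unadjusted p under 0.05), with 0% of all. Without both arrays, a fit added after the data were seen, it gave 0 (1 at an unadjusted p under 0.05), again with 0%.

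Reactivation was also counted array by array, as a control signal under 50 with a treated signal of at least 50 and at least 5-fold higher. Only probe sets with a control signal under 50 could meet this, 9 of the 22 in HCT116 and 13 in RKO. Of all signals 21.9% to 27.3% were under 50 on each array. A larger part of the family than of all probe sets could thus be counted, which favours a higher MAGE count. The number of MAGE probe sets out of 22, with the share of all probe sets in brackets, is given for each HCT116 array. It was 3 with 5-aza-dC (5.46%), 4 with PJ-34/5-aza-dC (4.75%), 3 with 5-aza-dC/TSA (4.17%) and 5 with all 3 drugs (4.47%), against 1 with PJ-34 (5.13%), 3 with TSA (5.29%) and 3 with PJ-34/TSA (3.56%). MAGEA8 met the limits on each HCT116 array with 5-aza-dC and on none without it. MAGEA9 and MAGEA11 also met them on all 4, and each on 1 array without the drug. In RKO the number was 6 with 5-aza-dC (5.61%), 6 with 5-aza-dC/TSA (5.19%) and 8 with all 3 drugs (7.29%), against 2 with TSA (4.75%) and 2 with PJ-34/TSA (4.41%). It was 0 on the array labelled PJ-34/5-aza-dC (4.55%) and 6 on the array labelled PJ-34 (5.26%). MAGEA4, MAGEA6 and the probe set of MAGEA3 and MAGEA6 were among them on the array labelled PJ-34 and on the 3 arrays with 5-aza-dC outside the doubted pair. The limits were also moved to a control signal under 100 and a treated signal of at least 100. In HCT116 the number became 4 with 5-aza-dC, 5 with PJ-34/5-aza-dC, 4 with 5-aza-dC/TSA, 2 with TSA and 1 with PJ-34/TSA. In RKO it became 0 with TSA, 1 with PJ-34/TSA and 7 with all 3 drugs. On the other arrays it stayed the same. The share of all probe sets was not worked out at these limits. Each of these counts sets 1 array against 1 control array.

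Averaged over the conditions, 12 of 18 MAGE probe sets were higher in HCT116 than in RKO and none lower. Of the 42119 probe sets tested 8977 were called higher in HCT116 and 9687 lower, 44.3% in either direction. Without both RKO arrays 12 of 18 were again higher, while 7762 of all were called higher and 8197 lower (37.9%). The log2 difference, HCT116 minus RKO, was 7.45 for the probe set of MAGEA3 and MAGEA6 (SE 0.50, adjusted p = 4.73e-10), 6.78 for MAGEA6 (SE 0.49, adjusted p = 1.49e-09) and 5.37 for MAGEB2 (SE 0.74, adjusted p = 7.08e-06). Without both RKO arrays it was 7.65, 6.99 and 5.43 for these 3. MAGEB1 differed by 3.21, MAGEA1 by 2.86, MAGEA4 by 1.69 and MAGEA8 by 1.27, and MAGEC1 by -0.01, which did not pass (adjusted p = 0.984). MAGEA8, MAGEA11 and MAGEB6 reached the filter's signal of 100 on no RKO array. They entered this fit only through HCT116 arrays, which favours a higher level there.

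The 5-aza-dC effect itself was set between the lines as HCT116 minus RKO. As labelled 0 of 18 differed (7 at an unadjusted p under 0.05), against 0.0309% of all. Without both RKO arrays 5 differed, against 0.164%. The effect was larger in HCT116 for MAGEA9, with a difference of 4.01 (SE 0.75, adjusted p = 0.0475, log2). It was smaller in HCT116 for MAGEB2, by -3.77 (SE 0.29, adjusted p = 6.51e-06), for MAGEA6, by -1.95 (SE 0.24, adjusted p = 0.00144), for the probe set of MAGEA3 and MAGEA6, by -1.83 (SE 0.32, adjusted p = 0.0313), and for MAGEA2 on 214603_at, by -1.54 (SE 0.22, adjusted p = 0.00492). These last 4 probe sets gave 8441 to 16659 in untreated HCT116. MAGEA4 differed by 2.72 (SE 0.63, adjusted p = 0.139) and MAGEA8 by 3.16 (SE 0.67, adjusted p = 0.0880), neither passing. As labelled, 2 passed when the HCT116 TSA array was left out, MAGEA8 and MAGEA9. MAGEA8 reached 100 only on the 4 HCT116 arrays with 5-aza-dC. It entered these fits through them alone, which favours a larger effect in HCT116. The TSA effect differed between the lines in 0 of 18 as labelled (1 at an unadjusted p under 0.05), against 0.401% of all. Without both RKO arrays, also added after the data were seen, it differed in 0 of 18 (3 at an unadjusted p under 0.05), against 0.133%.

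**Figure D4:**
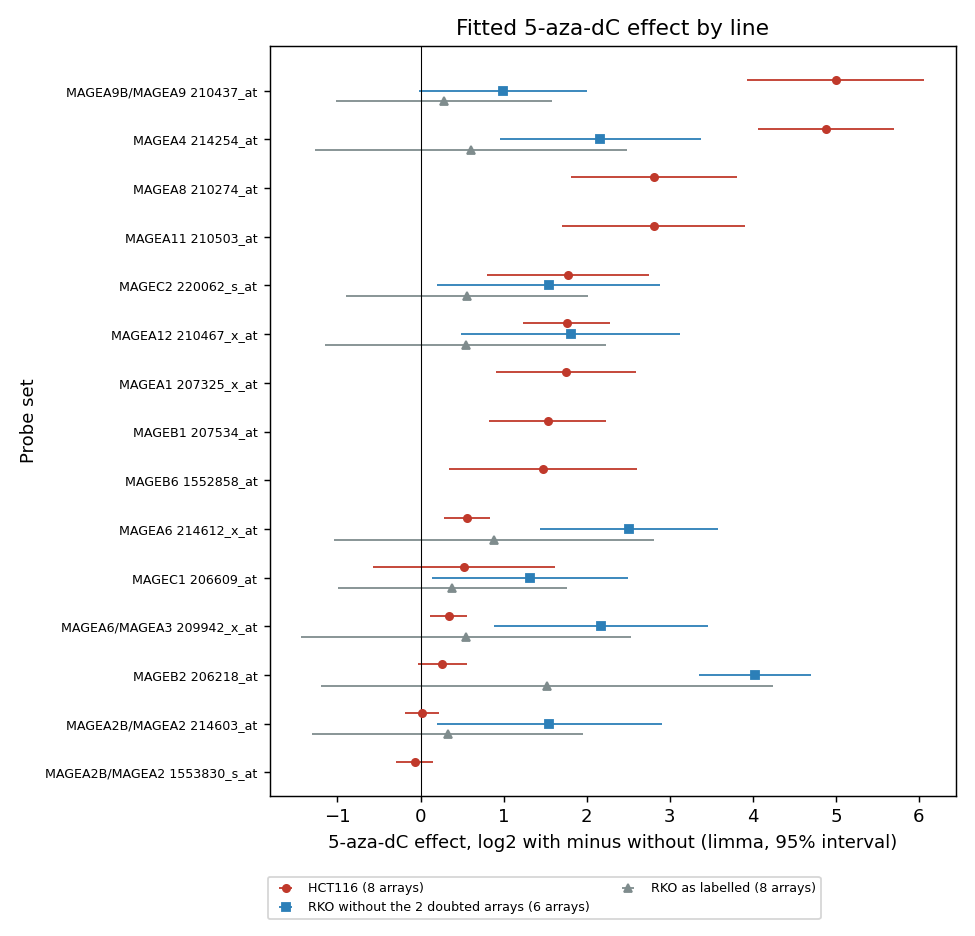
Fitted 5-aza-dC effect of MAGE probe sets (log2, arrays with minus arrays without the drug, bars are 95% intervals from limma) in HCT116 (red), RKO without both doubted arrays (blue) and RKO as labelled (grey). MAGEB2 lies at 0.26 in HCT116 and at 4.03 in RKO without both arrays, and MAGEA9 at 5.00 and 0.99.

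Of the type II MAGE genes, which are used in many normal tissues, 5 were tested in HCT116 and 1 was called up with 5-aza-dC, MAGED2 (log2 effect 1.05, SE 0.14, adjusted p = 0.00171). In RKO 4 were tested, and without both arrays 1 was called up, MAGED1 (0.49, SE 0.09, adjusted p = 0.00780). Of 9 genes for ligases, partners and substrates of MAGE proteins, among them TRIM28, TRIM27 and USP7, 0 were called with 5-aza-dC in HCT116, and with TSA 1 was called up, TRIM28 (0.61, SE 0.12, adjusted p = 0.00825). With 5-aza-dC in RKO without both arrays 1 was called down, DCAF12, a receptor that marks MAGEA3 and MAGEA6 for breakdown (-0.51, SE 0.12, adjusted p = 0.0445). Of the antigen presentation genes 0 of 7 were called in HCT116 with 5-aza-dC, and with TSA 1 was called down, B2M (-0.34, SE 0.09, adjusted p = 0.0265). With 5-aza-dC in RKO without both arrays 4 of 8 were called up: HLA-B (0.56), HLA-C (0.40) and the peptide transporter genes TAP1 (0.83) and TAP2 (0.40). Of 9 tested genes of DNA methylation, DNMT1 and UHRF1 included, 0 were called with 5-aza-dC in HCT116, nor were any of 8 in RKO, and with TSA in HCT116 1 was called up, UHRF1 (0.51, SE 0.11, adjusted p = 0.0107). The regulators were CTCFL, CTCF, ETS1, SP1 and TBP. With 5-aza-dC in RKO without both arrays 1 was called up, CTCFL, a germ cell paralog of CTCF (2.56, SE 0.45, adjusted p = 0.00799). CTCFL gave 67.8 in the RKO control, which is under the filter's signal. Whether any array without 5-aza-dC outside the doubted pair reached that signal was not checked. If none did, CTCFL had to differ in this fit, which limits what the call adds. In HCT116 CTCFL averaged 794 with 5-aza-dC and 45.6 without it, but it did not pass the filter there and was not tested. As labelled, 0 of these genes were called with 5-aza-dC in RKO.

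Probe sets of the other X-linked antigen families were also read: GAGE, XAGE, PAGE, CT45, SSX and CTAG. In HCT116 20 of the 25 tested were called up with 5-aza-dC, against 0.673% of all, and 1 was called down with TSA. In RKO without both arrays 19 of 26 were called up with 5-aza-dC, against 1.13% of all, and as labelled 0 were. Most of those tested in HCT116 averaged under the filter's signal of 100 on the arrays without 5-aza-dC. Probe sets that reached 100 only with 5-aza-dC, or in RKO also on the array labelled PJ-34, had to differ. Their number was not counted, which limits what both counts add. Many of these probe sets share genes with each other. Of the germ cell markers 0 of 5 were called with 5-aza-dC in HCT116 or in RKO. Their log2 effects in HCT116 were 1.77 for SYCP3 (SE 0.47, adjusted p = 0.142) and 1.25 for DAZL (SE 0.72, adjusted p = 0.577). Those of ACRV1, TNP1 and PRM1 were 0.44, -0.18 and -0.47. Of the colon epithelium markers KRT20 was called up with 5-aza-dC in HCT116 (3.09, SE 0.19, adjusted p = 1.07e-06). With TSA in HCT116 KRT8 was called up (0.87, SE 0.11, adjusted p = 0.000689), and CDH1 (-0.53, SE 0.12, adjusted p = 0.0136) and the fibroblast marker COL1A1 (-1.37, SE 0.22, adjusted p = 0.00249) were called down.

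The genes whose profile was most like the mean of the main genes were named by Pearson's r over the 8 arrays of a line. In HCT116 these were AK5 (r = 0.988), NXT2 (0.987), H2BC5 (0.985), KHDC1L (0.984) and MSX1 (0.983), set against 8 main genes. In RKO as labelled they were CCDC106 (0.994), LOX (0.985), NXT2 (0.984), the antigen gene CTAG2 (0.982) and ARHGEF19 (0.981), set against 5. Over the 6 RKO arrays without the doubted pair, also added after the data were seen, they were IFITM1 (0.998), HOXA-AS2 (0.998), LY96 (0.996), LRRN4 (0.996) and ZNF274 (0.995). NXT2 stood in the lists of HCT116 and of RKO as labelled. Its signal in RKO was 5699, 5218 and 4506 with 5-aza-dC, 5-aza-dC/TSA and all 3 drugs, 1628 on the array labelled PJ-34/5-aza-dC and 8153 on the array labelled PJ-34, against 1864 in the control. The r values describe 8 or 6 arrays of different treatments.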

How the data were processed

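RNA of HCT116 and RKO cells had been hybridized to Affymetrix Human Genome U133 Plus 2.0 arrays, 1 per condition. The intensity values deposited by the authors are linear probe set signals from GCOS, scaled array by array to a common mean. GCOS is named in the submitters' processing notes, and its version is not given in the sources used here. Groups came from the deposited labels. Gene symbols came from the platform annotation (41091 probe sets with 1 symbol, 1801 with several, 11721 with none), and promoter sequences and positions from RefSeq (GRCh38.p14).

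Control probe sets were left out. A floor of 50 was applied to the signals before log2, and a fit kept the probe sets that reached 100 on at least 4 of its arrays. Drug effects were fitted with limma 3.58.1 (R 4.3.3) with a term per drug, moderated variances with a trend, and Benjamini-Hochberg adjustment over all kept probe sets at 0.05. Fits of both lines added the line and each drug by line. Fits that left out arrays used the same probe sets as the full fit. The script was tested on simulated data. Alternatives were a floor of 20, no filter, quantile normalization, no trend, all arrays in 1 fit, 1 probe set per gene, each array left out, both doubted RKO arrays left out, and reactivation limits of 100 in place of 50. Leaving out both arrays was added after the data were seen for PJ-34 in RKO, the TSA effect between the lines and the likeness in RKO. For the other fits with RKO arrays it was planned, but after an earlier look at these data had shown that both go against their labels.

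The members, gene lists and tests were chosen with earlier results of these data known. All probe sets of the family were accounted for, each main gene was named, and list genes were named where they passed, except among the other antigen families. For 1 value per main gene the probe set with a single symbol and the highest mean was used.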

Additional observations from a re-analysis of the deposited data

Results flagged for a closer look

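The 5-aza-dC effect of 5 MAGE probe sets differed between the lines by limma's interaction term when the RKO array labelled PJ-34 and the one labelled PJ-34/5-aza-dC were left out, and none of them did as labelled. As HCT116 minus RKO on the log2 scale, the difference was 4.01 for MAGEA9 (210437_at), -3.77 for MAGEB2 (206218_at), -1.95 for MAGEA6 (214612_x_at), -1.83 for the probe set of MAGEA3 and MAGEA6 (209942_x_at) and -1.54 for that of MAGEA2 (214603_at). The part of the labels in these differences was not tested. No group of arrays held more than 1 array of a condition, so no array was compared with others of its own condition.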

How the results depend on the processing

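The number of MAGE probe sets called up with 5-aza-dC in HCT116 was 5. It was 0 with no filter and 0 with no variance trend, and the cause was not tested. With 1 probe set per main gene, which gives 2, fewer members were counted. It ranged from 3 to 10 when single arrays were left out. The number called down with TSA in HCT116 ranged from 0 to 1 in such fits. In RKO the number called up with 5-aza-dC was 0, and 2 without the array labelled PJ-34 and the one labelled PJ-34/5-aza-dC. The number whose 5-aza-dC effect differed between the lines was 0 as labelled, 1 after quantile normalization, 5 without both arrays and 0 to 2 with single arrays left out. The number that differed in level between the lines was 12, and 6 with 1 probe set per main gene. The other settings kept each count within 1.5 times its value, and those run for PJ-34 in HCT116, TSA in RKO and the 5-aza-dC by TSA interaction gave 0. The number whose TSA effect differed between the lines was 0 and that called with PJ-34 in RKO was 0, also without both arrays, fits added after the data were seen. No paired analysis was possible because every array carries the replicate number 1, so the numbers pair nothing. HCT116 arrays that differ in 5-aza-dC alone were set side by side, and 12 of 22 MAGE probe sets were higher with it in all 4 such pairs. The share of all probe sets higher in all 4 pairs was not worked out, so this count has no reference beside it. Dim probe sets limit what can be read: 47 of 176 MAGE signals in HCT116 and 92 of 176 in RKO lay under 50.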
